A study of Arabidopsis thaliana with 4 samples.

Results

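The genes described are the 9 members of the C/S1 bZIP network of Arabidopsis thaliana, measured by RNA sequencing in the base of the inflorescence stem of mol1-1 mutants and wild-type (WT) plants. They were chosen by name, as the 5 genes of bZIP group S1 (BZIP1, BZIP2, BZIP11, BZIP44 and BZIP53) and the 4 genes of group C (BZIP9, BZIP10, BZIP25 and BZIP63), among 33316 loci in the tables. This family was picked with the mol1-1 and WT values of the same libraries in view. The differences of the members between the genotypes are therefore given as a description, and nothing is read from their test results. Both genotypes were in the Col-0 background and each had 2 libraries. The plants stood for 3 weeks in short days (8 h light, 16 h dark, 21 °C) and then in long days (16 h light, 8 h dark), and 1 cm of stem next to the rosette was cut from plants 15 to 20 cm tall. MOL1 (AT5G51350) is the gene of a receptor-like kinase with leucine-rich repeats. How many plants went into a library, and whether the replicates came from separate plants, is not given in the sources used here, so p-values measure the spread between these libraries, which may be technical.

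Basic leucine zipper (bZIP) factors bind DNA in pairs, with a basic region that touches the DNA and a zipper of leucines that holds the partners together. Group S1 proteins pair preferentially with group C proteins, and these heterodimers act downstream of SnRK1, the plant kinase that senses low energy, at genes for amino acid breakdown and carbon recovery during darkness or starvation. Group S1 transcripts carry a conserved upstream reading frame through which sucrose represses their translation, so that transcript level and protein level can part. In stems, sugar arrives through the phloem, where several of these genes are known to be active.

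The basic region is the part that both groups share, and its coding sequence is shown to let the members be compared. Each stretch is 57 bases of coding strand, 19 codons long, beginning at the invariant asparagine codon, and was read from the RefSeq genome TAIR10.1. Capitals mark the codons of that asparagine and of the arginine that ends the most conserved part of the motif.
BZIP1 (chr5:20052214-20052270, plus strand): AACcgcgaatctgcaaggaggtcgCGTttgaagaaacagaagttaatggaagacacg
BZIP2 (chr2:7898633-7898689, minus strand): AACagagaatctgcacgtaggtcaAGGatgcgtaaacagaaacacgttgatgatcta
BZIP11 (chr4:16522551-16522607, plus strand): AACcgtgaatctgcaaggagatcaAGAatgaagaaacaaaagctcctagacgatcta
BZIP44 (chr1:28292368-28292424, plus strand): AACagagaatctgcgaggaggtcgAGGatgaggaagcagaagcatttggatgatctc
BZIP53 (chr3:23092132-23092188, minus strand): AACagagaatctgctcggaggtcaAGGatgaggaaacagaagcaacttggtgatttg
BZIP9 (chr5:8515940-8515996, plus strand): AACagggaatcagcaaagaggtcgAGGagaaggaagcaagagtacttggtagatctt
BZIP10 (chr4:1155236-1155292, plus strand): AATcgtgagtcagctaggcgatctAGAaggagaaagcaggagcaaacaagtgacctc
BZIP25 (chr3:20218723-20218779, minus strand): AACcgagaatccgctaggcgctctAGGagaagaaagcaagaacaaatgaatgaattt
BZIP63 (chr5:10797205-10797261, minus strand): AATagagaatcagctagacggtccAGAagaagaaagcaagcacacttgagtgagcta

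Over these 57 bases, pairs within group S1 shared 35 to 47 bases (median 42, 10 pairs) and pairs within group C shared 34 to 43 (median 40.5, 6 pairs). Pairs of 1 member from each group shared 26 to 44 bases (median 36, 20 pairs). The proteins encoded by the longest annotated coding sequences were shorter in group S1, at 145 residues for BZIP1, 171 for BZIP2, 159 for BZIP11, 173 for BZIP44 and 146 for BZIP53. Group C encoded 277 residues in BZIP9, 417 in BZIP10, 403 in BZIP25 and 314 in BZIP63. No stretch was split by an intron. In the deposited tables the group S1 genes had 1 to 3 exons and 907 to 1370 bases of exon, while the group C genes had 6 to 11 exons and 1021 to 1644 bases. Of the exon reads of group S1 genes 90.5% to 98.5% were unique, with the lowest share in BZIP44, and all exon reads of group C genes were unique.

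The libraries held 37059413 and 28570901 exon reads in mol1-1, against 30794836 and 28017346 in WT. MOL1 itself had 9.51 and 9.18 counts per 1000000 reads (CPM) in mol1-1, against 29.6 and 29.6 CPM in WT, a log2 ratio of -1.66 (SE 0.12) that passed edgeR's quasi-likelihood test at an adjusted p of 0.0217. Markers of xylem, phloem and cambium were present in every library and their summed levels overlapped between genotypes. Markers of flowers were summed in reads per kilobase of exon and 1000000 gene reads (RPKM). They came to 0.309 and 0.217 RPKM in mol1-1, against 1.47 and 0.0857 RPKM in WT, where replicate 1 was the highest library. In each library 3 or 4 of the 4 seed markers were at 0. The summed level of 4 epidermis markers was 151 and 96.8 RPKM in mol1-1, against 184 and 182 RPKM in WT. Both mol1-1 libraries were below both WT libraries for 2 of the 3 that were tested, beside 16.8% of all tested genes. None of the 3 was called in edgeR. The summed level of 10 genes that touch and wounding are known to induce was 412 and 406 RPKM in mol1-1, against 91.4 and 88.2 RPKM in WT, and 6 of the 10 were called higher in edgeR, beside 0.189% of all tested genes. Of these, ERF6, TCH4, ERF1A, ZAT12 and ERF5 had the smallest p, with log2 fold changes of 2.71 to 3.93. The touch and wound list was chosen with earlier results of these data known, so nothing is read from the count of 6 of 10. Green tissue markers summed to 2872 and 3962 RPKM in mol1-1, against 3058 and 2871 RPKM in WT, and xylem markers to 3248 and 2065 RPKM in mol1-1, against 2452 and 3318 RPKM in WT, so that mol1-1 replicate 2 was the highest library for green tissue and the lowest for xylem. The part of tissue content and of these touch genes in the values below was not tested. In bulk tissue, fewer cells of a type and less RNA per cell cannot be told apart.

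All 9 members were expressed in every library and all passed the filter on low counts. BZIP1 and BZIP63 had the largest differences, with higher levels in both mol1-1 libraries. BZIP53 was also higher in both mol1-1 libraries by a smaller amount, BZIP11 was lower in both, and the genotypes overlapped for BZIP2, BZIP44, BZIP9, BZIP10 and BZIP25. Across all 19024 tested genes, 16.9% had both mol1-1 libraries above both WT libraries and 16.8% had both below, 33.7% in either direction, and the members counted 3 of 9 and 1 of 9. None of the 9 passed an adjusted p of 0.05 in edgeR, where 0.2% of all tested genes passed. At an unadjusted p of 0.05 the members past it were 3 of 9, beside 5.94% of all tested genes, and in DESeq2 the members past the adjusted threshold were BZIP1 and BZIP63, 2 of 9, beside 1.29%. Nothing is read from these counts, because the same contrast was in view when the family was picked. Over the 9 members the median log2 fold change was -0.03 (-0.15 to 0.05 with 1 library left out), against -0.01 over all tested genes, and 3 of 9 lay above 0, against 47.8% of all tested genes.

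**Figure D1:**
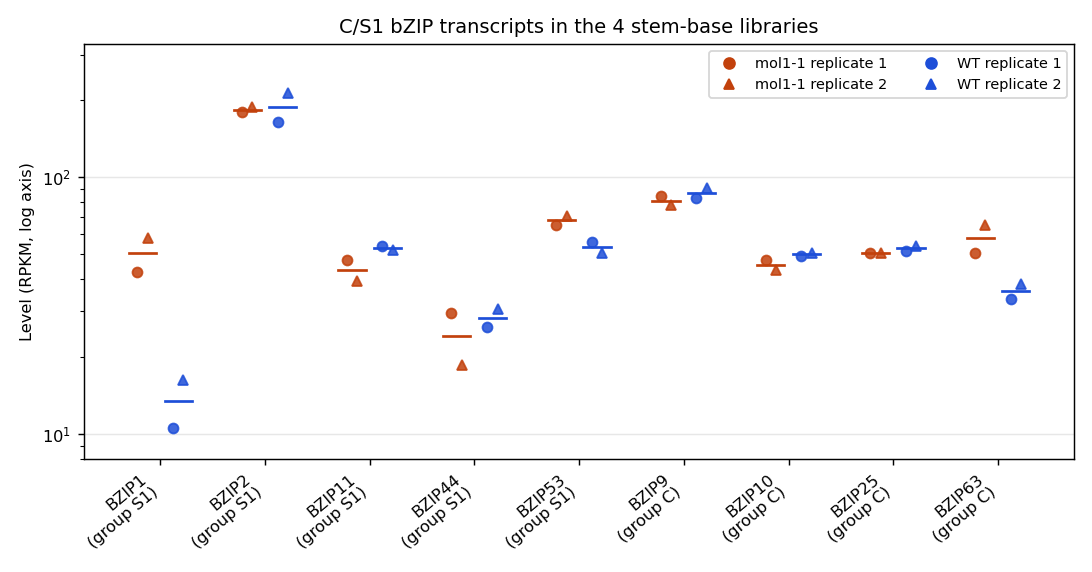
Level of each member in the 4 libraries (RPKM, log axis), mol1-1 left of WT, with a circle for replicate 1, a triangle for replicate 2 and a bar for the mean. BZIP1 stands at 42.9 and 58.1 RPKM in mol1-1, above 10.6 and 16.2 RPKM in WT, and BZIP2 is the most abundant member in every library.

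Among the group S1 genes, BZIP1 (AT5G49450, chromosome 5, 20051829 to 20052735) encodes a factor of the low-energy response whose transcript is known to be repressed by sugar. It had 1464 and 1531 exon reads in mol1-1, against 300 and 420 in WT, which scaled to 40.7 and 53.2 CPM in mol1-1, against 9.47 and 15.1 CPM in WT. Both mutant libraries lay well above both WT libraries, and the gap between the nearest libraries was 1.43 on the log2 scale, wider than the range of 0.39 within mol1-1 or of 0.67 within WT. The log2 fold change was 1.94 (SE 0.26), a ratio of 3.83. Of the 19024 tested genes 0.668% had a larger absolute log2 fold change. Between 97.3% and 98.5% of its exon reads were unique, and no other annotated gene overlaps it.

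BZIP53 (AT3G62420, chromosome 3, 23091586 to 23092850) encodes a strong partner of group C proteins, known for activating proline dehydrogenase and seed maturation genes. It was measured at 86.3 and 90.2 CPM in mol1-1, against 69.7 and 65.8 CPM in WT. The replicates lay close together in each genotype and the mutant pair was the higher one, with a log2 fold change of 0.38 (SE 0.12). Of the tested genes 15.0% had a larger absolute value.

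BZIP11 (AT4G34590, chromosome 4, 16521861 to 16523230) is the group S1 gene best known for translational control by sucrose and for targets in amino acid and trehalose metabolism. Its level was 68.2 and 54.4 CPM in mol1-1, against 73.3 and 72.8 CPM in WT. Both mutant libraries were lower, replicate 2 more so, and the log2 fold change was -0.25 (SE 0.15). Without mol1-1 replicate 2 the log2 fold change was -0.10.

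BZIP2 (AT2G18160, chromosome 2, 7898012 to 7899242), also called GBF5, encodes a close relative of the BZIP11 protein. It had 230 and 232 CPM in mol1-1, against 200 and 267 CPM in WT. The mutant values fell between the WT values, and the log2 fold change was -0.02 (SE 0.19).

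BZIP44 (AT1G75390, chromosome 1, 28291698 to 28293008) encodes a factor known for its role in seed germination. It had 40.6 and 24.4 CPM in mol1-1, against 33.8 and 41.2 CPM in WT. The genotypes overlapped, and the mol1-1 replicates were 0.73 apart on the log2 scale, the widest range within a genotype among the members. The log2 fold change was -0.20 (SE 0.25), and it was 0.11 without mol1-1 replicate 2.

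In group C, BZIP63 (AT5G28770, chromosome 5, 10796457 to 10798305) encodes a direct substrate of SnRK1, whose phosphorylation is known to change its dimerisation. Its exon reads numbered 2433 and 2417 in mol1-1, against 1340 and 1390 in WT, or 67.7 and 84.0 CPM in mol1-1, against 42.3 and 50.0 CPM in WT. Both mutant libraries were higher, and the gap of 0.44 on the log2 scale between the nearest libraries was wider than the range of 0.31 within mol1-1 or of 0.24 within WT. The log2 fold change was 0.72 (SE 0.17), a ratio of 1.64, and 5.37% of the tested genes had a larger absolute value. Junction reads, which span 2 exons, equalled 20.1% and 18.8% of its exon reads in mol1-1, against 23.4% and 23.5% in WT. Over all loci this share was 16.4% and 15.2% in mol1-1, against 16.5% and 16.7% in WT.

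BZIP9 (AT5G24800, chromosome 5, 8515200 to 8516669) encodes a group C factor known from the phloem. It was found at 90.0 and 80.0 CPM in mol1-1, against 83.7 and 94.9 CPM in WT, and the genotypes overlapped with a log2 fold change of -0.07 (SE 0.14). Its junction reads equalled 32.8% and 25.7% of exon reads in mol1-1, against 31.7% and 33.0% in WT, so that mol1-1 replicate 2 was the low one. A protein-coding gene on the opposite strand, AT5G24810, overlaps its annotated span, and reads in the overlap cannot be assigned to either without a stated use of strand.

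BZIP10 (AT4G02640, chromosome 4, 1153945 to 1156356) and BZIP25 (AT3G54620, chromosome 3, 20217854 to 20220497) encode partners of the BZIP53 protein on seed maturation genes. BZIP10 had 75.9 and 66.9 CPM in mol1-1, against 74.3 and 79.1 CPM in WT, with a log2 fold change of -0.10 (SE 0.13). BZIP25 had 87.0 and 84.0 CPM in mol1-1, against 83.9 and 90.9 CPM in WT, with a log2 fold change of -0.03 (SE 0.13). The genotypes overlapped for both. Of the seed gene list of these factors, 11 genes for storage proteins, seed regulators and the mannanase MAN7, only MAN7 passed the filter on low counts, and it was not past the threshold in edgeR.

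Compared per length, BZIP2 was the most abundant member in both genotypes, at 179 and 187 RPKM in mol1-1, against 165 and 212 RPKM in WT. BZIP9 came next at 84.1 and 77.6 RPKM in mol1-1, against 83.0 and 90.8 RPKM in WT. Below these, the order in mol1-1 was BZIP53, BZIP63, BZIP25, BZIP1, BZIP10, BZIP11 and BZIP44. From BZIP53 to BZIP11 each of these mol1-1 levels overlapped the next in range, and BZIP44 lay below them. The order in WT was BZIP53, BZIP11, BZIP25, BZIP10, BZIP63, BZIP44 and BZIP1. There BZIP53, BZIP11 and BZIP25 overlapped in range and each later member lay below the one before it. BZIP1 was thus the least abundant member in WT and stood within the middle group in mol1-1. For BZIP10, BZIP25 and BZIP63 the exon length used by the authors differs from that of the TAIR10.1 annotation (1523 against 1732, 1644 against 1703 and 1276 against 1443 bases), which bears on their place in this order and not on the ratio between genotypes.

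The pool of group S1 transcripts summed to 364 and 373 RPKM in mol1-1, against 311 and 361 RPKM in WT. The group C pool summed to 233 and 237 RPKM in mol1-1, against 217 and 234 RPKM in WT. In RPKM the mutant libraries lay above both WT libraries for group S1 and overlapped them for group C. In CPM, which are TMM-scaled, the group S1 sums were 466 and 454 in mol1-1, against 387 and 462 in WT, and overlapped as well. WT replicate 1 was the lowest for both groups on both scales. Group S1 took 61.0% and 61.2% of the pooled RPKM in mol1-1, against 58.9% and 60.7% in WT. The same share of summed CPM was 59.3% and 59.1% in mol1-1, against 57.6% and 59.5% in WT, so the genotypes overlapped. With BZIP1 left out, the share of RPKM was 58.0% and 57.1% in mol1-1, against 58.0% and 59.6% in WT. BZIP1 made up 11.8% and 15.6% of the group S1 pool in mol1-1, against 3.39% and 4.50% in WT, and BZIP2 made up 49.1% and 50.0% in mol1-1, against 52.9% and 58.6% in WT. BZIP63 made up 21.7% and 27.5% of the group C pool in mol1-1, against 15.4% and 16.4% in WT.

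**Figure D2:**
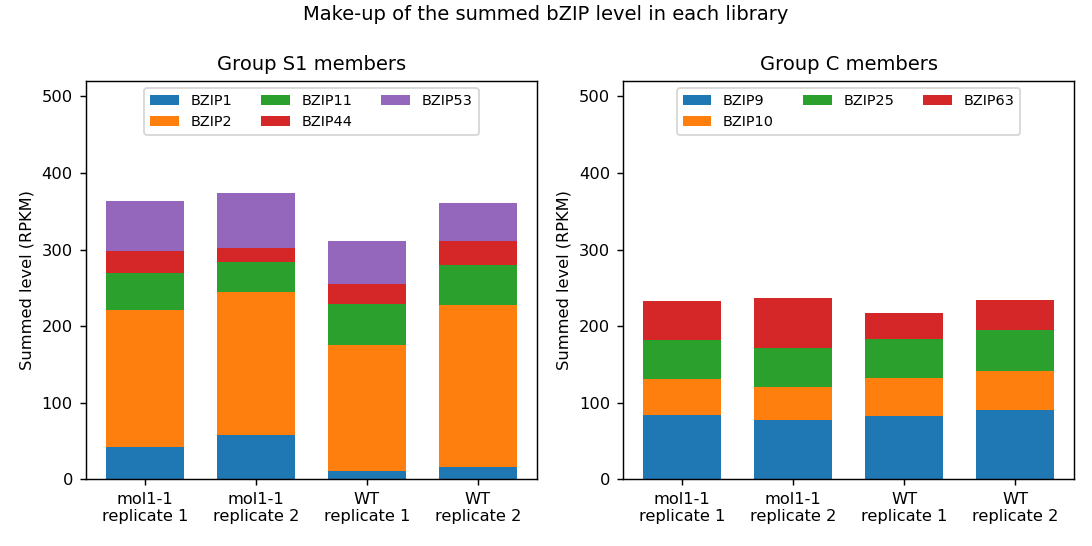
Stacked level of the members of each group (RPKM) in every library, mol1-1 left of WT. The group S1 bars reach 364 and 373 RPKM in mol1-1 and 311 and 361 RPKM in WT, and the BZIP1 segment is the one that differs most between genotypes.

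The genes whose pattern over the 4 libraries was nearest to that of BZIP1, by root mean square difference in centred log2 CPM, were ACS6 (0.114), UGT73B1 (0.117) and IQD12 (0.141). ACS6, an enzyme of ethylene synthesis, had 17.8 and 26.0 CPM in mol1-1, against 4.61 and 6.11 CPM in WT. IQD12 was far less abundant, at 0.389 and 0.556 CPM in mol1-1, against 0.0947 and 0.180 CPM in WT. Nearest to BZIP63 were AT1G32460 (0.0266), AT4G32990 (0.0293) and TRM34 (0.0319). AT1G32460 had 197 and 243 CPM in mol1-1, against 119 and 148 CPM in WT. AT4G32990 was far less abundant, at 0.695 and 0.904 CPM in mol1-1, against 0.442 and 0.539 CPM in WT. Its log2 fold change had an SE of 0.43, so its nearness rests on few reads.

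SnRK1 acts upstream of the network. Of 8 genes for its catalytic, beta and gamma subunits 7 were tested, and none passed in edgeR, with 1 at an unadjusted p under 0.05 and 1 in DESeq2, both counts being the beta subunit gene KINB1. The shares over all tested genes were 0.2% in edgeR, 5.94% at the unadjusted p and 1.29% in DESeq2. This list and the lists below were, like the family, chosen with earlier results of these data known, so nothing is read from their counts. The 7 log2 fold changes had a median of 0.05, and of -0.05 to 0.14 with 1 library left out. KINB1 had 66.0 and 68.7 CPM in mol1-1, against 37.1 and 45.2 CPM in WT, so both mutant libraries were higher (log2 fold change 0.71, SE 0.14, adjusted p 0.261 in edgeR). The catalytic subunit gene KIN10 had 89.7 and 86.6 CPM in mol1-1, against 81.2 and 81.3 CPM in WT (log2 fold change 0.12, SE 0.12, adjusted p 0.997 in edgeR). The other 2 beta subunit genes were lower in both mutant libraries, KINbeta2 (AT4G16360) with a log2 fold change of -0.22 (SE 0.12) at an adjusted p of 0.944 in edgeR and KINbeta3 (AT2G28060) with -0.11 (SE 0.14) at 0.997. KING1, a gamma subunit, was the most abundant of the list at a mean of 102 RPKM over the 4 libraries, and its genotypes overlapped.

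**Figure D3:**
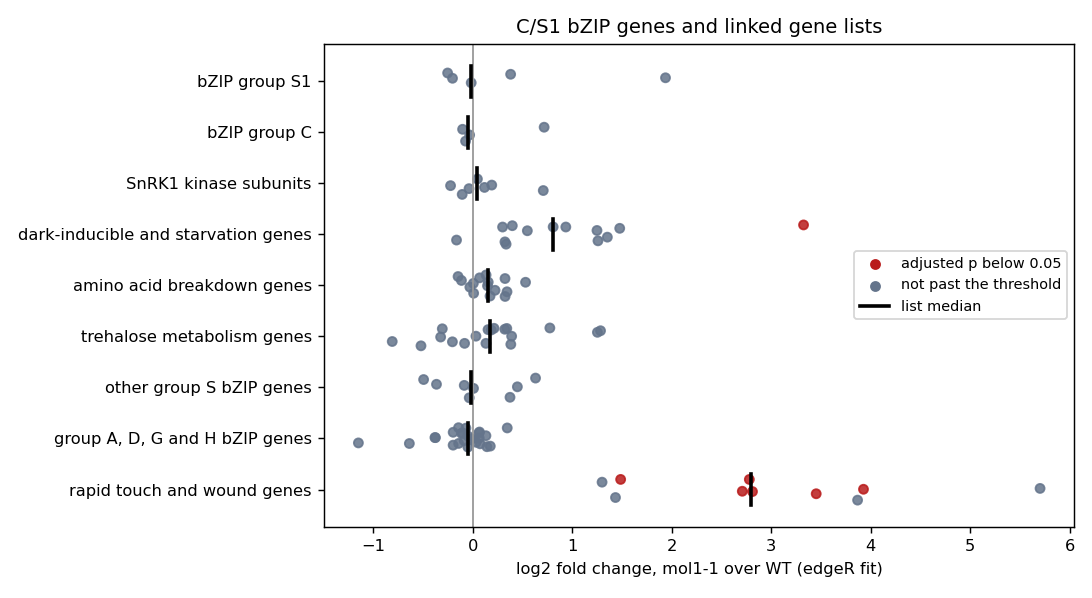
Log2 fold change (mol1-1 over WT, edgeR) of each tested gene in the C/S1 bZIP groups and the linked lists, with a line at each list's median. SEN1 is the only gene of the pathway lists past the threshold, and the median of the starvation list is 0.81.

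Downstream, 16 dark-inducible and starvation genes, several of them known targets of C/S1 factors, had 13 tested members. SEN1, a senescence and dark marker, rose in mol1-1 and was the 1 member of 13 that passed in edgeR, beside 0.189% of all tested genes called higher. SEN1 had 9.73 and 11.9 CPM in mol1-1, against 1.14 and 1.01 CPM in WT, which gave a log2 fold change of 3.32 (SE 0.22) at an adjusted p of 0.0213 in edgeR. Both mutant libraries were above both WT libraries for 12 of the 13 tested genes and below for none, beside 16.9% and 16.8% of all tested genes, with DIN9 as the overlapping one. DIN2, DIN11 and EXL1 did not pass the filter on low counts. At an unadjusted p under 0.05 the list counted 9 of 13, beside 5.94% of all tested genes, and DESeq2 called 5 of them, beside 1.29%. As this list was chosen with earlier results of these data known, nothing is read from these counts. The 13 log2 fold changes had a median of 0.81.

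DESeq2 called ASN1, SEN1, AT3G15450, DRM2 and BAM9 in this list. Apart from SEN1 and AT3G15450, the most abundant gene of the list, they are named after their values were seen. ASN1 encodes an asparagine synthetase and is a textbook target of BZIP1, BZIP11 and BZIP53. It had 58.7 and 69.5 CPM in mol1-1, against 17.5 and 36.5 CPM in WT, so both mutant libraries were higher and the WT replicates lay apart (log2 fold change 1.25, SE 0.34, adjusted p 0.484 in edgeR). BAM9, a member of the beta-amylase family, had 164 and 183 CPM in mol1-1, against 54.6 and 81.4 CPM in WT (log2 fold change 1.35, SE 0.22, adjusted p 0.141 in edgeR). AT3G15450 had 1053 and 1277 CPM in mol1-1, against 319 and 518 CPM in WT (log2 fold change 1.48, SE 0.28, adjusted p 0.216 in edgeR). DRM2, a dormancy-associated gene, had 280 and 394 CPM in mol1-1, against 138 and 144 CPM in WT (log2 fold change 1.26, SE 0.21, adjusted p 0.144 in edgeR). Both mutant libraries were the higher ones for each of these genes.

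One library in each genotype stood at the end of the range for most of the list. WT replicate 1 was lowest for 10 of the 13 genes, and mol1-1 replicate 2 was highest for 9 of 13. Where both mutant libraries lie above both WT libraries, the lowest must be a WT library and the highest a mol1-1 library. Shares over all tested genes are therefore no like comparison, and nothing is read from these counts. Without WT replicate 1 the median log2 fold change of the list was 0.51, and without WT replicate 2 it was 1.20. BZIP1 and BZIP63, also separated by genotype, were lowest in WT replicate 1 and highest in mol1-1 replicate 2.

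**Figure D4:**
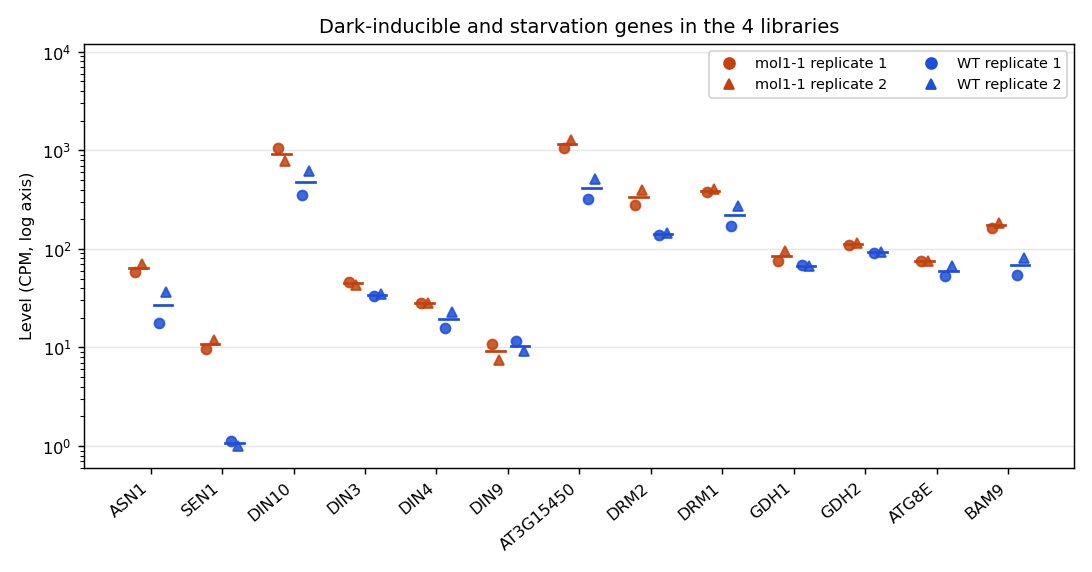
Level of each tested dark-inducible and starvation gene in the 4 libraries (CPM, log axis), mol1-1 left of WT, circles for replicate 1, triangles for replicate 2 and bars for means. SEN1 stands at 9.73 and 11.9 CPM in mol1-1 against 1.14 and 1.01 CPM in WT, and DIN9 is the gene whose genotypes overlap.

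The promoters of ASN1 and BAM9 are shown as the 2 of the 5 starvation genes called by DESeq2 that hold a G-box, an element that bZIP factors are known to bind. They were thus picked for the motif. Of the other 3, AT3G15450 holds an ACGT core without a G-box, and SEN1 and DRM2 hold no ACGT core in this window. Each is the 250 bases before the annotated gene start in TAIR10.1, with capitals at the motifs found.
ASN1 (chr3:17441432-17441681, minus strand): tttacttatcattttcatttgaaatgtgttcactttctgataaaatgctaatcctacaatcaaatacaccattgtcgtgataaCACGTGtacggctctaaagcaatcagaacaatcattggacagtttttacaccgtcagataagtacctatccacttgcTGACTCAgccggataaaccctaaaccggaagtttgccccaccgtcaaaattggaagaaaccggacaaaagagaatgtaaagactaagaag
BAM9 (chr5:6225706-6225955, plus strand): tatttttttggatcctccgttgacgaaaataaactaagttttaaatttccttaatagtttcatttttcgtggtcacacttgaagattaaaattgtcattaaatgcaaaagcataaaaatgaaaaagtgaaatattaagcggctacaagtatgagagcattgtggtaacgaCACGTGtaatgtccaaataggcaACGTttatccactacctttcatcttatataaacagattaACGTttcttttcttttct
The motifs searched, on both strands, were the ACGT core, the G-box CACGTG, which contains that core, the C-box GACGTC, which also contains it, the element ACTCAT, and the GCN4-like element TGACTCA or its reverse complement. The ASN1 window held a G-box starting 167 bases before the gene start and a TGACTCA starting 90 bases before it, and it overlaps another annotated gene, AT3G47341. The BAM9 window held a G-box starting 80 bases before the gene start and further ACGT cores at 57 and 18 bases before it. A G-box lay in 4 of 16 starvation list promoters, 4 of 19 trehalose list promoters, 1 of 8 SnRK1 promoters and none of 15 amino acid breakdown promoters. It lay in 6.49% of 27443 protein-coding promoters of the same length. The ACGT core lay in 8 of 16 starvation list promoters, 13 of 19 trehalose list promoters, 7 of 15 amino acid breakdown promoters and 2 of 8 SnRK1 promoters, against 44.1% of all. The GCN4-like element lay in 3 of 16 starvation list promoters, 1 of 15 amino acid breakdown promoters and none of the trehalose or SnRK1 promoters, against 2.83% of all. The element ACTCAT lay in 2 of 16 starvation list promoters, 2 of 15 amino acid breakdown promoters and 5 of 19 trehalose list promoters. It lay in none of the SnRK1 promoters, against 12.3% of all. The C-box lay in 1 of 15 amino acid breakdown promoters and none of the other 3 lists, against 2.27% of all. In the windows of the 9 bZIP genes themselves the ACGT core was found in BZIP53, BZIP9 and BZIP10, and none of the other 4 motifs was found in any. These matches describe letters in a window and do not show binding.

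Among 15 amino acid breakdown genes, all tested, none passed in edgeR or DESeq2, with 2 at an unadjusted p under 0.05, beside 5.94% of all tested genes. The median log2 fold change was 0.15, and it was 0.03 without mol1-1 replicate 1 and 0.27 without WT replicate 2. Those 2 encode enzymes of leucine breakdown. MCCB had 109 and 110 CPM in mol1-1, against 70.2 and 81.6 CPM in WT, so both mutant libraries were higher (log2 fold change 0.53, SE 0.14, adjusted p 0.461 in edgeR). The log2 fold change was 0.32 for IVD (SE 0.12, adjusted p 0.764 in edgeR). The proline dehydrogenase gene ERD5 (ProDH1), a known target of BZIP53, was the most abundant of the list. It had 1291 and 722 CPM in mol1-1, against 514 and 1093 CPM in WT, and the genotypes overlapped widely.

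Of 19 trehalose metabolism genes 18 were tested and none passed in edgeR, with 4 at an unadjusted p under 0.05 and 2 in DESeq2, beside 0.2%, 5.94% and 1.29% of all tested genes. The median log2 fold change was 0.17, and it was 0.03 without WT replicate 1 or without mol1-1 replicate 1 and 0.35 without WT replicate 2. WT replicate 1 was lowest for 10 of the 18 genes and mol1-1 replicate 2 for 7. The highest library was mol1-1 replicate 1 for 9 genes and mol1-1 replicate 2 for 4, unlike in the starvation list. Where the genotypes are separated, the lowest and highest libraries are of fixed genotype, so nothing is read from these counts. Both mutant libraries were above both WT libraries for 8 of 18 genes and below for 2, beside 16.9% and 16.8% of all tested genes. The 2 called by DESeq2 were TPS8 and TPS11, class II trehalose phosphate synthase genes known to respond to sugar status. TPS8 had 171 and 132 CPM in mol1-1, against 57.2 and 67.6 CPM in WT (log2 fold change 1.28, SE 0.18, adjusted p 0.0996 in edgeR). TPS11 had 74.6 and 87.3 CPM in mol1-1, against 29.0 and 38.9 CPM in WT (log2 fold change 1.25, SE 0.19, adjusted p 0.107 in edgeR). Both mutant libraries were higher for each. The most abundant of the list was TPPG, a trehalose phosphate phosphatase gene, whose genotypes overlapped. Of 3 auxin genes linked to BZIP11, none passed in edgeR or DESeq2 or at an unadjusted p under 0.05. Among them the log2 fold change was 0.35 for PIN4, an auxin carrier (SE 0.16, adjusted p 0.910 in edgeR), and 0.40 for IAA3 (SE 0.23, adjusted p 0.978 in edgeR).

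Outside the C/S1 network, 33 of 39 other bZIP genes were tested. None passed in edgeR or DESeq2, where 0.2% and 1.29% of all tested genes passed, so this does not set them apart. At an unadjusted p under 0.05 were 2, a share near the 5.94% of all tested genes. Both mutant libraries were above both WT libraries for 4 of 33 and below for 7, beside 16.9% and 16.8% of all tested genes. All 7 were in groups A, D, G and H. Median log2 fold changes were -0.01 for 8 other group S genes and -0.05 for 25 genes of groups A, D, G and H. The group S genes BZIP3 (log2 fold change 0.63, SE 0.17, adjusted p 0.461 in edgeR) and BZIP6 (0.45, SE 0.17, adjusted p 0.767 in edgeR) had the smallest p among the 33. BZIP3 had 12.2 and 14.4 CPM in mol1-1, against 7.95 and 9.20 CPM in WT, so both mutant libraries were higher. GBF2 of group G had a log2 fold change of 0.35 (SE 0.15) at an adjusted p of 0.890 in edgeR. The most abundant genes of the lists were BZIP58 and TGA4, at means of 44.6 and 31.5 RPKM over the 4 libraries, and their genotypes overlapped. ABI5, the group A regulator of abscisic acid response, was near the low end of detection, at 0.334 and 0.243 CPM in mol1-1, against 0.757 and 0.539 CPM in WT (log2 fold change -1.15, SE 0.49, adjusted p 0.886 in edgeR).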

How the data were processed

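Polyadenylated RNA from 2 mol1-1 and 2 WT stem-base samples was sequenced. Per the file headers, the authors deposited whole-number read counts per locus (total and unique exon reads, total gene reads, junction reads), exon lengths and numbers of exons, and RPKM values. The deposited RPKM are exon reads divided by exon length in kilobases and by total gene reads in units of 1000000, to within a relative difference of 2.15e-14. Build TAIR10 comes from the submitters' processing notes. The aligner, the counting program, read filters and the use of strand were not given in the sources used here. Of 33323 rows, 5 without a locus name (0.0586% to 0.0864% of exon reads) were left out, and 2 loci listed more than once were summed.

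Total exon reads were tested across 19024 genes with edgeR 4.0.16 in R 4.3.3 (filterByExpr, TMM, quasi-likelihood test, no covariate, Benjamini-Hochberg adjustment over all tested genes, threshold 0.05). CPM use TMM-scaled library sizes, log2 fold changes are mol1-1 over WT, and the SE is the log2 fold change divided by the square root of F. RPKM served to compare levels between genes and to sum levels over several genes, and were not tested. Replicates were further apart than sampling noise, their chi-square divided by its degrees of freedom being 62.3 in mol1-1 and 28.9 in WT. The script was tested on simulated data.

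The 9 genes and all gene lists were chosen with earlier results of these data known. Named besides the 9 were MOL1, up to 5 passing genes per list by smallest p or else the 2 with the smallest p, the most abundant gene of each list, and the 3 genes nearest in pattern to BZIP1 and to BZIP63. Others, such as KIN10, ASN1, BAM9 and DRM2, were named after their values were seen. Sequences, gene spans and symbols are from RefSeq TAIR10.1, a later release than the build named by the submitters. Alternatives were DESeq2 1.42.0, RLE scaling, no filter, a replicate block, each library left out, unique exon reads and total gene reads. The tables number the mutant libraries 2 and 3 where the labels number them 1 and 2, and the labels' numbers are used.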

Additional observations from a re-analysis of the deposited data

How the results depend on the processing

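Under 11 alternatives BZIP1, BZIP53 and BZIP63 kept a positive log2 fold change (1.63 to 2.33, 0.35 to 0.42 and 0.55 to 0.86) and BZIP11 and BZIP10 a negative one (-0.44 to -0.10 and -0.21 to -0.01). BZIP2, BZIP44, BZIP9 and BZIP25 changed sign when 1 library was left out. The 38 genes called by edgeR became 281 in DESeq2, 141 with no filter, and 37 to 409 when 1 library was left out. Of the pathway lists edgeR called 1 gene, DESeq2 8, the fit with no filter 5, and the fits without 1 library 1 to 7. Among fits to all 4 libraries, BZIP1 was past the threshold in DESeq2, with no filter, with the replicate block and with the crossed block below. It was not past it with RLE scaling, unique exon reads or total gene reads. BZIP63 was past it in DESeq2 only. These alternatives called 0.21% to 1.3% of all tested genes. Nothing is read from the calls of BZIP1 and BZIP63, because the same contrast was in view when the family was picked. In these alternatives fitted to all 4 libraries, SEN1 was called each time. None of the 33 tested bZIP genes outside the C/S1 network was called in them. At such shares of all tested genes, few or no calls among 33 genes would be usual, so this does not set the network apart. The cause of these differences was not tested. The deviations of same-numbered libraries correlated at -0.232. That value rests on 1 difference between replicates in each genotype, so it cannot decide whether the labels' numbers pair the samples. The fit with the replicate block called 136 genes, 3 of them in the pathway lists. A crossed block, added after seeing the data, puts WT replicate 2 with mol1-1 replicate 1, which the tables number 2, and called 248 genes, 8 of them in the pathway lists. With 2 libraries a genotype, 1 library can decide a call, and a fit without 1 library lends the lone one the spread of the other genotype.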
